A study of Mus musculus with 10 samples.

Results

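The Reg genes encode small secreted C-type lectins, and 5 of them were chosen by name from the 31053 genes of the deposited single-cell table: Reg1, Reg3a, Reg3b, Reg3g and Reg4. Their unique molecular identifiers (UMIs, each standing for 1 captured transcript) were summed for every library and every cell class of the deposited annotation. The study cultured crypts of the proximal small intestine of mice aged 6 to 12 weeks as organoids, and sequenced 8 organoid libraries and 2 libraries of colonic crypts. ENR-organoids (3 libraries, at passages 2, 7 and 3) grew in a culture medium that held the growth factor EGF, the BMP antagonist Noggin and the Wnt agonist R-Spondin 1. Hyper-organoids (3 libraries, at passages 1, 6 and 3) grew in a medium of 8 components: LDN193189, GSK-3 Inhibitor XV, Pexmetinib, VPA at 500 µM, EPZ6438 at 2 µM, EGF, R-Spondin 1 conditioned medium and FGF2. The -VE-organoids (2 libraries, at passages 1 and 6) had that medium without its 2 epigenetic drugs, VPA, which inhibits histone deacetylases, and EPZ6438, which inhibits the methyltransferase EZH2. Hyper replicates 1 and 2 and both -VE libraries were started from ENR-organoids. ENR replicate 3 and Hyper replicate 3 were both started from primary crypts and both stood at passage 3. The labels give no origin for ENR replicates 1 and 2, so the groups also differed in culture history in replicates 1 and 2. The colonic crypts came from 1 normal and 1 DSS library. Colitis was induced with 2.5% dextran sulfate sodium in the drinking water for 5 days, in female mice aged 8 weeks. Libraries with the same replicate number share a code prefix in the labels, which is read here as 1 culture series. The labels do not say that the libraries of a group came from separate animals, so p-values measure the spread between these libraries.

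Reg3b and Reg3g are bactericidal or bacteriostatic lectins of the gut epithelium that rise with microbial contact and with interleukin-22 signalling through STAT3. Reg1 was first described in the regenerating pancreas and is made by small intestinal enterocytes. Reg4 marks secretory cells, above all enteroendocrine cells and deep crypt secretory cells of the colon. The choice of genes had a history in this study: Reg3b was among the markers by which the medium was chosen, Reg3b and Reg3g belong to a list of genes raised after intestinal injury that the study drew from published data of other experiments, and Reg1 is among its enterocyte markers. The direction of Reg3b and the high share of Reg1 in enterocytes are therefore not independent evidence.

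Reg1, Reg3a, Reg3b and Reg3g lie within 98.2 kb of mouse chromosome 6, a span that holds 6 Reg genes in the GENCODE vM21 annotation of GRCm38. Reg3b (ENSMUSG00000071356, chr6:78370657-78373466) and its neighbours Reg3a (ENSMUSG00000079516, chr6:78380709-78383827) and Reg1 (ENSMUSG00000059654, chr6:78422711-78428667) are on the plus strand. Reg3g (ENSMUSG00000030017, chr6:78466269-78468872) is on the minus strand. Reg4 (ENSMUSG00000027876, chr3:98222156-98236748, plus strand) stands alone on chromosome 3. Reg3b and Reg3g carry most of the findings and are close copies, with 76.4% identity over 525 aligned coding bases and a longest shared run of 35 bases. Over the last 300 transcript bases, where the reads of this 3′ assay fall, identity was 65.2% and the longest shared run 17 bases. Reg3a was nearly as close over the coding bases (73.4% to Reg3b and 73.3% to Reg3g), and over the last 300 transcript bases it was closer to Reg3b (68.9%). The shared stretches are short, and how many reads, if any, were credited to the wrong copy was not measured. The last 90 coding bases of both genes are shown to make plain how far they differ near the 3′ end, from GENCODE vM21 transcripts, 5′ to 3′, with the 25 differing bases in capitals.
Reg3b coding end: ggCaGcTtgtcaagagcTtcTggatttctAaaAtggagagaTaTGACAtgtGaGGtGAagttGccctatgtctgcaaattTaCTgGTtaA
Reg3g coding end: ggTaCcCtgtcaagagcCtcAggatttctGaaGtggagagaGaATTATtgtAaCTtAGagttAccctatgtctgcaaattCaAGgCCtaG

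The stretches before the RefSeq starts of both genes are shown because the pair moved together across libraries. They are from RefSeq on GRCm38.p6, which held promoters for all 5 genes, each printed on its gene's strand. The Reg3b stretch (chr6:78370752-78370861, plus strand) covers bases 133 to 24 before the RefSeq start, and the Reg3g stretch (chr6:78468896-78469005, minus strand) bases 131 to 22. GENCODE begins Reg3b earlier than RefSeq, so the Reg3b stretch lies within the GENCODE gene interval given above. Capitals mark matches to a TATA box (letters TATAAA), a STAT motif (letters TTCNNNGAA) and a TCF motif (letters CTTTGAT), each searched for on both strands.
Reg3b promoter: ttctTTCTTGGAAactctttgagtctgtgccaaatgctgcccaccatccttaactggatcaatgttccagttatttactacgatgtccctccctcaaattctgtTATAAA
Reg3g promoter: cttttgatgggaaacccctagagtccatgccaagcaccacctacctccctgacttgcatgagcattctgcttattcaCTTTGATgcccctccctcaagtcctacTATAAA

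A TATAAA match began 29 bases before the start of Reg3b, 27 bases before that of Reg3g and 30 bases before that of Reg1, and 12.4% of the 32851 promoter windows of the same length (250 bases before to 50 after the start) held one. Reg3g held a further TATAAA match on the opposite strand 161 bases before its start, outside the stretch shown. A STAT match was found in Reg3b alone among the 5, 129 bases before the start, against 7.02% of all windows. A TCF match lay 54 bases before the start of Reg3g and 7 bases before that of Reg3a, against 3.21% of windows. GGAATG (TEAD) was absent from all 5 windows and present in 12.6% of all. The motifs do not overlap each other in the stretches shown, and a match describes letters only.

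The 25204 kept cells comprised 22139 organoid and 3065 colonic cells. Organoid libraries held 89124015 to 170019527 UMIs over kept cells, with medians of 38173.5 to 50651.5 UMIs per cell, and the colonic libraries 19906845 and 32397122 UMIs. The annotation puts organoid cells into stem, transit amplifying (TA), enterocyte progenitor, enterocyte, goblet, Paneth, enteroendocrine and small further classes. In Hyper-organoids the cells called stem held Lgr5, the crypt stem cell receptor, at 161, 163 and 122 CPM (UMIs of a gene per 1000000 UMIs of the same cells), against 104, 111 and 88.3 CPM in ENR stem cells. Olfm4, another stem cell marker, stood at 630, 22 and 36.5 CPM in Hyper against 3738, 4336 and 2977 CPM in ENR. The summed revival markers Clu, Anxa1 and Ly6a reached 28.6, 78.1 and 125 CPM in Hyper stem cells. The lowest stem class of all organoid libraries held 1.14 CPM of these markers. Ascl2, a further stem marker of the study, stood at 40.4, 24.6 and 24.0 CPM in Hyper stem cells against 44.5, 56.6 and 42.6 CPM in ENR. Cd44, also on that list, stood at 90.6, 84.4 and 85.5 CPM against 48.6, 56.4 and 49.4 CPM. Lgr5 in Hyper TA cells, at 160, 159 and 124 CPM, was close to its level in Hyper stem cells. The stem class of the Hyper group is therefore named here by its annotation. Its Olfm4 went against the label, its Ascl2 was lower than in ENR, and its Lgr5 and Cd44 were higher. Goblet cells of Hyper-organoids also held Lgr5, at 150, 131 and 117 CPM, against 33.0, 47.4 and 18.6 CPM in ENR. Leukocyte markers summed to no more than 1.8 CPM in any organoid library.

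Over all kept cells the 5 genes did not move together. Reg3b rose and Reg3g rose in Hyper-organoids, Reg1 and Reg3a fell, and Reg4 did not pass the test. Reg3g stood at 16.3, 19.0 and 13.6 CPM in the ENR libraries, at 8.35 and 8.33 CPM in -VE, and at 249, 533 and 853 CPM in Hyper. Reg3b stood at 43.9, 45.1 and 12.4 CPM in ENR, at 7.37 and 1.45 CPM in -VE, and at 166, 368 and 569 CPM in Hyper. For both genes the lowest Hyper library lay above the highest library of either other group, and within Hyper both genes were lowest in replicate 1 and highest in replicate 3.

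Reg1 ran the other way, with 150, 181 and 216 CPM in ENR, 28.4 and 25.2 CPM in -VE, and 3.51, 74.8 and 20.6 CPM in Hyper. Reg3a, the remaining Reg3 gene among the 5, stood at 34.9, 54.4 and 22.1 CPM in ENR, at 5.31 and 0.735 CPM in -VE, and at 0.960, 1.17 and 0.886 CPM in Hyper. ENR did not overlap the other groups for either gene. The share of all genes whose libraries separate in this way, or as those of Reg3b and Reg3g did, was not counted. In Hyper against ENR 9902 of 16037 genes had an unadjusted p under 0.05 by edgeR, and the separation is given as a description only. Reg4 stood at 22.5, 31.1 and 36.7 CPM in ENR, at 30.3 and 85.1 CPM in -VE, and at 27.2, 87.4 and 136 CPM in Hyper, so the 3 groups overlapped.

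In Hyper against ENR, edgeR's quasi-likelihood test with Benjamini-Hochberg adjustment over 16037 genes called 2 of the 5 genes higher and 2 lower at an adjusted p under 0.05 and at least 2-fold. For comparison, 22.9% of all genes tested were called, 18.2% higher and 4.75% lower, so a call alone is common in this comparison. Reg3g rose by 4.94 ± 0.43 on the log2 scale (SE derived from the F statistic, 3 libraries a group, adjusted p = 4.14e-05). Reg3b rose by 3.33 ± 0.73 (adjusted p = 0.00480). The Reg3b rise was unequal among culture series, at 3.79-fold, 8.15-fold and 45.8-fold in replicates 1, 2 and 3, against 15.3-fold, 28.0-fold and 62.5-fold for Reg3g.

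Reg3a fell by 5.32 ± 0.70 on the log2 scale (adjusted p = 0.000348) and Reg1 fell by 2.60 ± 0.85 (edgeR, adjusted p = 0.0293). The Reg1 call was lost without ENR replicate 2 (adjusted p = 0.0595), ENR replicate 3 (0.0698) or Hyper replicate 3 (0.0874). Without the cells of the enterocyte class, an alternative added after seeing the data, Reg1 turned to 1.11 (edgeR, adjusted p = 0.148), Reg3a stood at -0.96, under the 2-fold limit (0.0472), and Reg3b rose by 8.45 (1.02e-05). Reg4 differed by 1.34 ± 0.57 (edgeR, adjusted p = 0.0769). With culture series as a replicate block the Reg4 difference was 1.08 and was called (adjusted p = 0.0150), and it was called without Hyper replicate 1 (1.77, adjusted p = 0.00811).

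Against the -VE-organoids, which lack the 2 epigenetic inhibitors, Hyper-organoids were higher in 2 of the 5 genes and lower in none, where 18.6% of genes were called, 16.1% higher. Reg3b differed by 6.27 ± 1.01 on the log2 scale (edgeR, adjusted p = 0.00167) and Reg3g by 5.90 ± 0.54 (adjusted p = 0.000136). Reg1 (0.17, adjusted p = 0.895), Reg3a (-1.69, adjusted p = 0.0830) and Reg4 (0.40, adjusted p = 0.632) did not pass. Reg3a was called in 3 of 21 alternatives, which ranged from -2.51 to 2.03. Without the enterocyte class 4 genes were higher, with Reg3a turned to 2.03 (edgeR, adjusted p = 0.00709), Reg1 at 3.03 (0.0119), Reg3b at 9.46 and Reg3g at 6.27. In -VE against ENR, 1 of the 5 genes was called where 2.55% of all genes were, in either direction: Reg3a, which fell by 3.63 ± 0.75 (edgeR, adjusted p = 0.0275). That call was lost without ENR replicate 1 (0.0674), ENR replicate 2 (0.0853) or -VE replicate 2 (0.0546). Reg3b differed by -2.94 (adjusted p = 0.0801) and Reg3g by -0.96 (adjusted p = 0.224). The 3 comparisons share libraries, so they are not independent of each other.

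**Figure D1:**
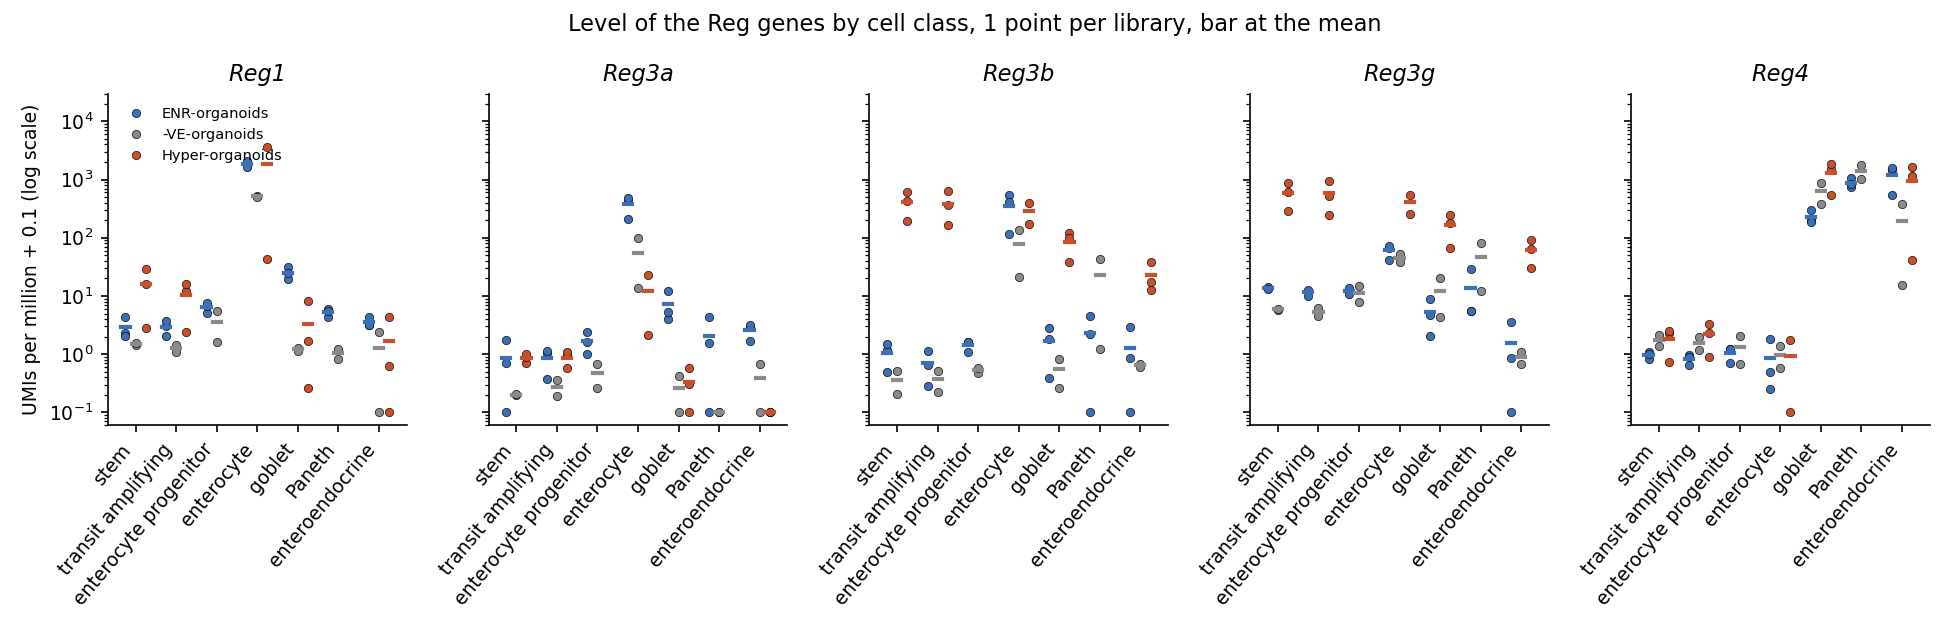
Level of each Reg gene (CPM plus 0.1, log axis) in the 7 main organoid cell classes, 1 point per library with at least 20 cells of the class, coloured by group, with a bar at the group mean. Reg3b and Reg3g are higher in the Hyper points than in all others in stem and TA cells, Reg1 and Reg3a are highest in enterocytes, and Reg4 in goblet, Paneth and enteroendocrine cells.

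The cell classes that held most Reg3b UMIs differed between ENR- and Hyper-organoids. In ENR-organoids Reg3b was an enterocyte transcript, at 551, 405 and 116 CPM in enterocytes and at 0.393 to 1.38 CPM in stem cells. In Hyper-organoids stem cells held 196, 432 and 609 CPM and TA cells 164, 364 and 624 CPM. Enterocytes of Hyper replicates 2 and 3 held 172 and 392 CPM, within the ENR range. In -VE-organoids stem cells held 0.419 and 0.107 CPM, below every ENR library but the lowest for replicate 1 and below all 3 for replicate 2. The ENR stem cells held 14, 17 and 3 Reg3b UMIs in all, so no fold per culture series is given.

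Stem and TA cells together held 0.938%, 1.37% and 0.813% of the Reg3b UMIs of the ENR libraries, although they made up 58.3%, 52.0% and 42.7% of the cells. In Hyper they held 98.3%, 97.5% and 97.4% of the Reg3b UMIs and made up 90.0%, 89.0% and 86.5% of the cells. The -VE libraries were nearer to ENR, with 4.68% and 6.88% of Reg3b UMIs in stem and TA cells that made up 77.3% and 77.4% of the cells. Enterocytes made up 9.78 to 13.1% of ENR cells and 0.249 to 1.65% of Hyper cells. Their share therefore moved together with the totals over all cells, which is why each class was also compared by itself.

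**Figure D2:**
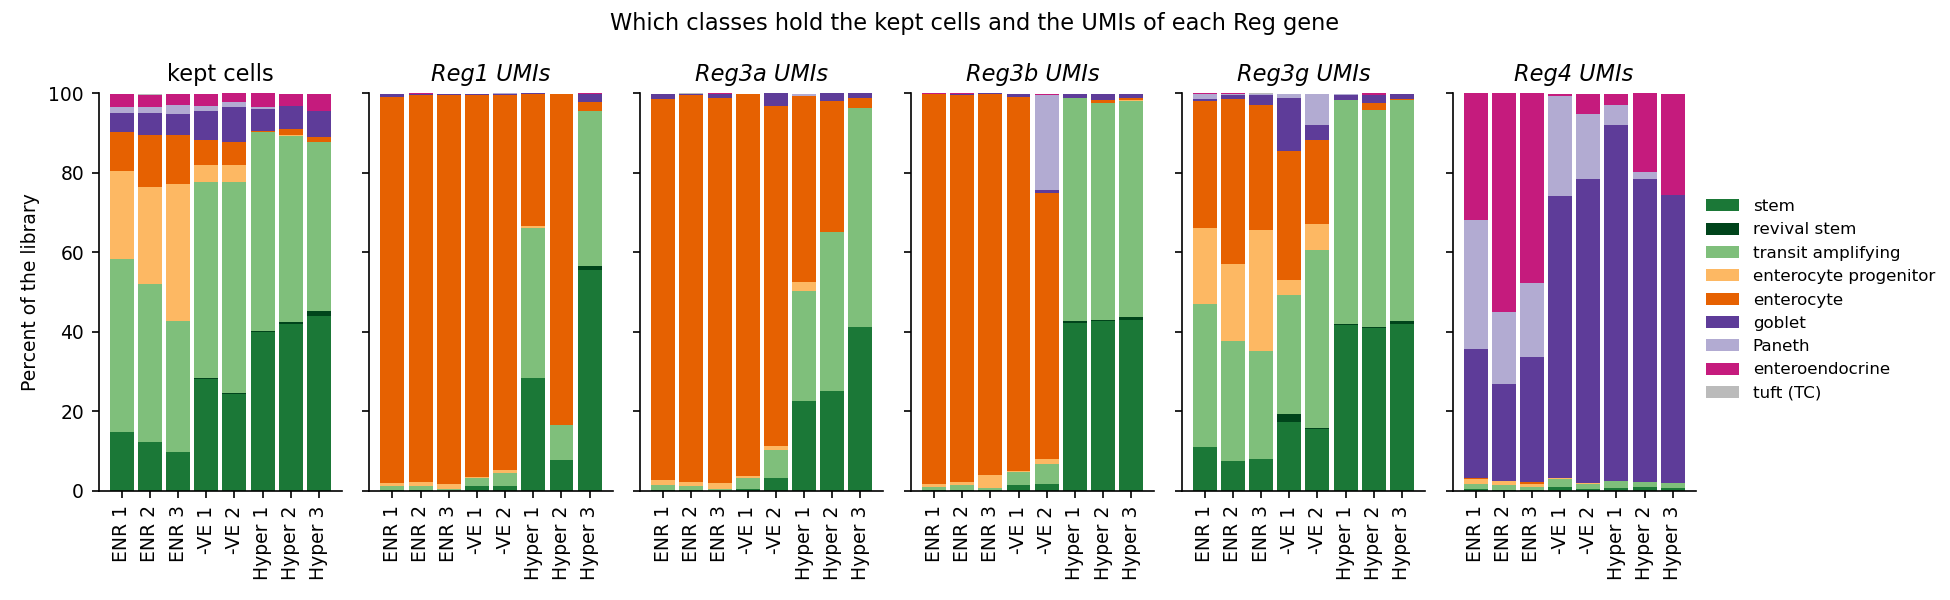
Stacked percent of the kept cells, and of the UMIs of each Reg gene, found in each cell class, 1 bar per organoid library. In ENR-organoids over 95% of Reg1, Reg3a and Reg3b UMIs are in enterocytes, and in Hyper-organoids over 95% of Reg3b and Reg3g UMIs are in stem and TA cells.

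Within stem cells, 3 of the 5 genes rose in Hyper against ENR and none fell, where edgeR called 15.2% of 13920 genes higher and 2.80% lower. Reg3b rose by 8.54 ± 0.57 on the log2 scale (edgeR, adjusted p = 6.03e-06), a size that rests on the few ENR UMIs, and Reg3g by 5.33 ± 0.39 (adjusted p = 9.88e-06). Reg3g stood at 13.6, 14.4 and 12.8 CPM in ENR stem cells, at 5.71 and 5.84 CPM in -VE and at 290, 599 and 888 CPM in Hyper. In ENR enteroendocrine cells, taken as a gauge of free RNA, Reg3g stood at 0.777, 3.52 and 0 CPM, below each ENR stem level, whereas Reg3b in ENR stem cells (14, 17 and 3 UMIs) did not stand above its enteroendocrine levels of 0.777, 2.81 and 0 CPM in every library. Reg1, the third gene called, rose from 2.17, 4.30 and 1.96 CPM to 2.77, 16.0 and 28.4 CPM in stem cells. Its groups overlapped, and the call (2.35 ± 0.74, edgeR, adjusted p = 0.0253) was lost without ENR replicate 1 (0.0959), ENR replicate 3 (0.0764) or Hyper replicate 3 (0.0750). Reg3a stayed below 2 CPM in stem cells of all ENR and Hyper libraries, with a difference of -0.17. Reg4 differed by 0.87 in stem cells (adjusted p = 0.205), and by 1.32 without Hyper replicate 1 (adjusted p = 0.00688, called).

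TA cells, the dividing progeny of stem cells, gave 4 genes higher and none lower, where 17.2% of genes were called higher and 3.78% lower. Reg3b rose by 9.09 ± 0.69 on the log2 scale (edgeR, adjusted p = 1.38e-05) and Reg3g by 5.53 ± 0.49 (adjusted p = 3.17e-05). Reg1 (1.71 ± 0.59, adjusted p = 0.0362) and Reg4 (1.38 ± 0.49, adjusted p = 0.0402) were called at low levels, no more than 16.2 and 3.26 CPM in any Hyper library. Neither call was firm: Reg1 lost it with the replicate block (1.41, adjusted p = 0.0559) and Reg4 after thinning to equal depth (adjusted p = 0.0528). Against -VE, 4 genes were higher in stem cells (14.7% of genes called higher), with Reg3b at 10.57, Reg3g at 6.58, Reg1 at 3.40 and Reg3a at 2.76 on the log2 scale. Without -VE replicate 1 or 2 the calls were lost for Reg1 (edgeR, adjusted p = 0.0619 and 0.0718) and Reg3a (0.122 and 0.142), and the latter also without Hyper replicate 3 (0.0507). Reg3a rested on 3 and 4 UMIs in the -VE stem cells. The same 4 were higher in TA cells (15.5% of genes called higher), at 10.47, 6.64, 3.0 and 2.06, of which the Reg3a call was lost after thinning (1.09, edgeR, adjusted p = 0.286). In -VE against ENR no gene of the 5 was called in stem, TA, enterocyte progenitor, Paneth (2 tested) or enteroendocrine cells (3 tested), where edgeR called 0.503%, 1.03%, 0.453%, 1.07% and 0.190% of all genes and 2465, 2798, 1692, 664 and 1413 genes had an unadjusted p under 0.05. Some alternatives called Reg3g in stem (2 of 12) and Paneth cells (1 of 3). Reg3a was called so in TA (1 of 4) and enterocyte progenitor cells (1 of 3), and Reg4 in enteroendocrine cells (1 of 4).

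**Figure D3:**
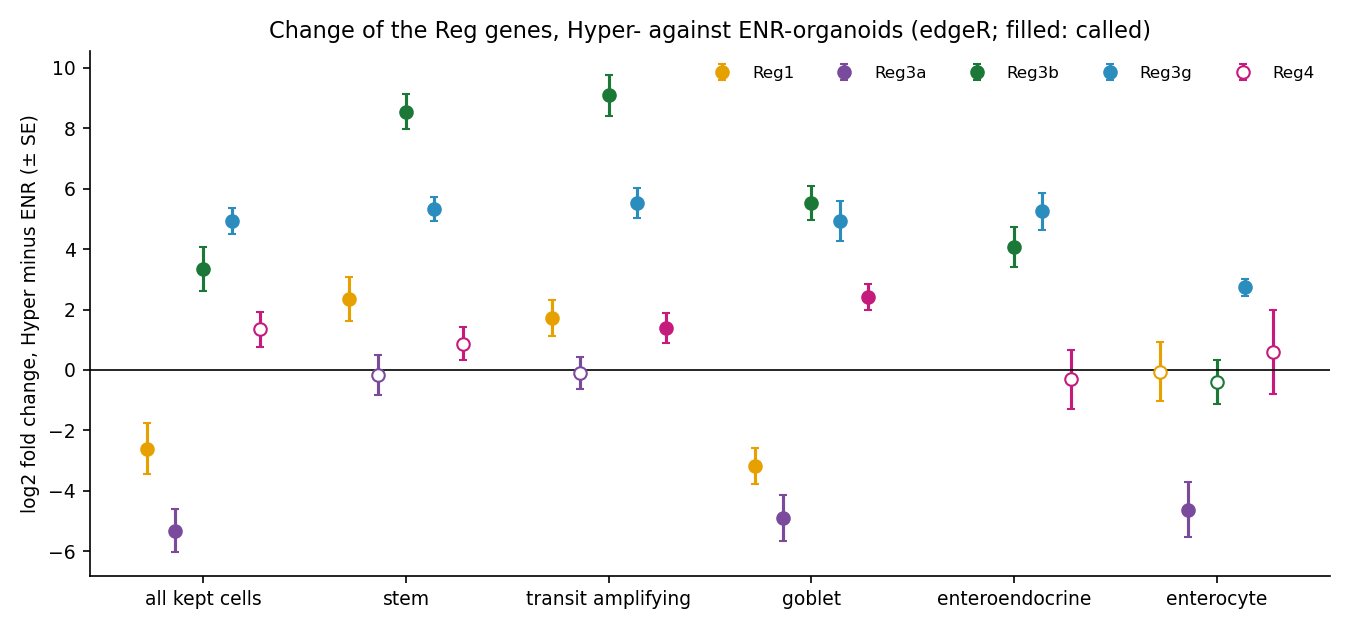
Fitted log2 fold change of each Reg gene, Hyper minus ENR, over all kept cells and within 5 cell classes. Each is given with a standard error derived from the edgeR F statistic. Filled points passed the edgeR test at an adjusted p under 0.05 and at least 2-fold. Reg3b rises by 8.54 in stem cells and 9.09 in TA cells but not in enterocytes (-0.39), and Reg3a falls in enterocytes and goblet cells but not in stem or TA cells.

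To compare shares of cells at equal depth, each cell was thinned to 10000 UMIs. After thinning, 28.3%, 38.9% and 43.7% of Hyper stem cells held a Reg3b UMI, and 41.0%, 51% and 58.9% before thinning. In ENR stem cells the thinned shares were 0.949%, 1.90% and 0%. Reg3g was found in 51%, 63% and 69.0% of Hyper stem cells and in 12.7%, 12.4% and 13.6% of ENR stem cells after thinning. The transcripts were unevenly spread over the cells: the top 10% of Hyper stem cells held 78.8%, 73.6% and 71.7% of the Reg3b UMIs and 58.6%, 54.8% and 50.8% of the Reg3g UMIs of their class.

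Enteroendocrine cells served as the class that should lack both lectins, as a gauge of free RNA. In Hyper-organoids 4.40%, 11% and 6.41% of them held a Reg3b UMI after thinning, at median depths of 24908, 18209 and 22108 UMIs. Goblet cells gave 6.49%, 25.7% and 25%, at 36431, 28376 and 34857 UMIs, so in replicate 1 the goblet share was close to the gauge. For Reg3g the enteroendocrine shares were 9.89%, 20.0% and 17.9%, below the 51 to 69.0% of stem cells. The enteroendocrine levels of 12.7 to 38.5 CPM Reg3b are the gauge itself. The top 10% of these cells held 100%, 89.2% and 79.2% of their Reg3b UMIs, and free RNA and transcripts of a few cells cannot be told apart. Reg3b was called higher there than in ENR by edgeR (4.08 ± 0.66, adjusted p = 0.00222), as was Reg3g (5.25 ± 0.61, adjusted p = 0.000293), making 2 of 3 genes tested where 5.96% of genes were called higher and 1.44% lower. Against -VE they were called too (5.20 for Reg3b and 6.10 for Reg3g, 3.52% of genes called higher).

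Over all kept cells, the thinned share of cells with a Reg3b UMI was 3.16% ± 1.41 in ENR and 35.5% ± 9.04 in Hyper (SD, n = 3 each, exact permutation p = 0.1). Reg3g was found in 11.5% ± 1.45 and 57.3% ± 10.2 of cells (exact permutation p = 0.1), and Reg3a in 5.79% ± 1.67 and 0.755% ± 0.384 (exact permutation p = 0.1). Reg1 (6.81% ± 0.954 against 5.43% ± 3.20, exact permutation p = 0.8) and Reg4 (3.85% ± 0.360 against 6.02% ± 2.19, exact permutation p = 0.3) overlapped between groups. With 3 libraries against 3, the smallest two-sided p is 0.1, and no share could pass 0.05. Adjusted over the 5 relations the exact permutation p was 0.167 for Reg3b, Reg3g and Reg3a, 0.8 for Reg1 and 0.375 for Reg4. Without thinning the means were 6.60% and 49.6% for Reg3b, 30.8% and 75.6% for Reg3g, 10.2% and 2.73% for Reg3a, 16.5% and 11.5% for Reg1, and 6.41% and 10.5% for Reg4.

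**Figure D4:**
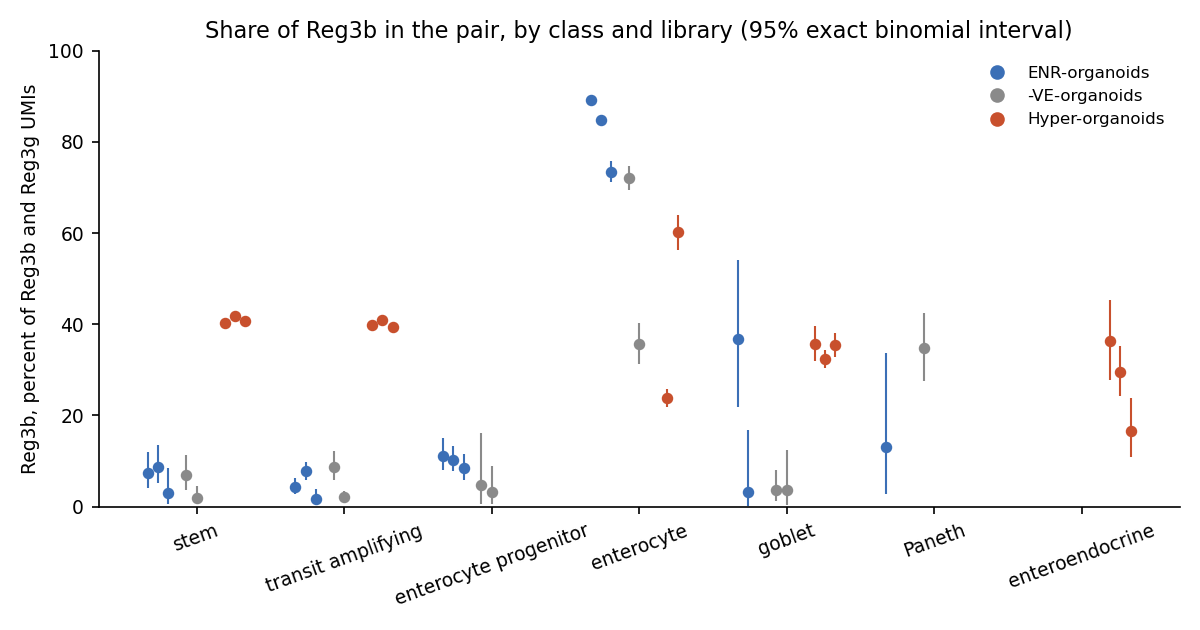
Reg3b UMIs as a percent of all Reg3b and Reg3g UMIs, by cell class, 1 point per library with at least 20 cells and 20 such UMIs, with 95% exact binomial intervals. ENR enterocytes lie at 73.5 to 89.2% and ENR stem cells at 2.97 to 8.72%, whereas Hyper stem and TA cells lie between 39.5 and 41.9%.

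The balance between the copies was set against the classes, since 1 UMI stands for 1 transcript of either gene whatever its length. In ENR enterocytes Reg3b made up 89.2%, 84.8% and 73.5% of the UMIs of the pair. In ENR stem cells it made up 7.37%, 8.72% and 2.97%. The pair was thus mostly Reg3b in ENR enterocytes and mostly Reg3g in ENR stem cells, although both genes had higher levels in enterocytes. In Hyper-organoids Reg3b made up 40.3%, 41.9% and 40.7% of the pair in stem cells and 39.9%, 40.8% and 39.5% in TA cells, a spread of a few percentage points over 3 libraries whose Reg3b levels spanned 196 to 609 CPM in stem cells. Goblet cells lay at 35.7%, 32.4% and 35.4%. Enteroendocrine cells lay at 36.3%, 29.5% and 16.7%, on 45, 83 and 24 Reg3b UMIs that were mostly held by few cells. Whether these shares differ from those of stem cells was not tested. Enterocytes of Hyper-organoids lay at 23.8% in replicate 2 (58 cells) and 60.2% in replicate 3 (21 cells).

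Within Hyper stem cells, cells with a Reg3b UMI held Reg3g more often than cells without one. After thinning (1117, 1461 and 849 stem cells), a Reg3g UMI was found in 82.9%, 91.7% and 93.8% of cells with a Reg3b UMI and in 38.5%, 44.6% and 49.8% of cells without one. Spearman's rho of their thinned counts was 0.54, 0.67 and 0.69 across the cells of each library, which share their library and depth and are not replicates. TA cells gave 83.3%, 89.9% and 96.5% against 35.4%, 37.7% and 48.9%. In ENR enterocytes the same rho was 0.25, 0.28 and 0.19 over 186, 327 and 269 cells.

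Reg1 and Reg3a were found mainly in enterocytes in ENR- and -VE-organoids. Reg1 is among the markers by which the study named that class, so its share there is partly set by the annotation. In ENR-organoids enterocytes held 97.2 to 97.8% of the Reg1 UMIs and 96.0 to 97.2% of the Reg3a UMIs, and in -VE 94.4 to 96.2% and 85.6 to 96.1%. In Hyper-organoids, with few enterocytes, stem and TA cells held 66.0%, 16.7% and 94.6% of the Reg1 UMIs and 50.4%, 65.3% and 96.3% of the Reg3a UMIs. Reg1 stood at 1875, 1626 and 2062 CPM in ENR enterocytes and at 523 and 510 CPM in -VE. In Hyper it stood at 3625 CPM in the 58 enterocytes of replicate 2 and at 43.1 CPM in the 21 of replicate 3, while replicate 1 had 7 enterocytes and was left out. The Hyper libraries lay on both sides of ENR, and the difference of -0.06 ± 0.98 was not called (edgeR, adjusted p = 0.979).

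Reg3a stood at 429, 487 and 208 CPM in ENR enterocytes, at 97.8 and 13.5 CPM in -VE and at 22.5 and 2.05 CPM in Hyper replicates 2 and 3. It fell within enterocytes by 4.63 ± 0.91 on the log2 scale in Hyper against ENR (edgeR, adjusted p = 0.00591) and by 2.80 in -VE against ENR (edgeR, adjusted p = 0.0399; DESeq2, adjusted p = 0.185, not called). Reg3a and Reg3g were the only genes of the 5 called in Hyper enterocytes, 1 lower and 1 higher, where 7.78% of 11154 genes were called higher and 3.08% lower. In -VE against ENR 1 of 5 was called there, against 3.34% of genes.

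Reg3g rose in enterocytes by 2.73 ± 0.29 on the log2 scale (edgeR, adjusted p = 0.000301), from 66.7, 72.4 and 42.0 CPM in ENR to 552 and 260 CPM in Hyper, and was the 1 gene called against -VE (3.22, adjusted p = 0.000710, 5.12% of genes called higher). Reg3b in enterocytes, at 172 and 392 CPM in Hyper replicates 2 and 3, lay within the ENR range of 116 to 551 CPM (-0.39 ± 0.73, edgeR, adjusted p = 0.751). In these Hyper libraries 1 enterocyte held 277 of 420 and 240 of 382 of the Reg3b UMIs, so the level rests on few cells. Against -VE, at 133 and 20.8 CPM, Reg3b in enterocytes was 1.86 higher in Hyper (adjusted p = 0.165), and with the replicate block it was called there (3.25, edgeR, adjusted p = 0.0292). The change of one copy against that of the other within enterocytes was not tested. The fold change of Reg3b in enterocytes minus that in stem cells was -9.69 on the log2 scale by a class by group interaction (edgeR, adjusted p = 1.63e-13), with -3.14 for Reg3g (adjusted p = 3.05e-05) and -4.85 for Reg3a (adjusted p = 5.51e-05). These 3 genes of the 5 were called where 4.19% of 12685 genes were. This pair of classes was chosen after the class levels had been seen, and limma-voom with the library as a random block kept the 3 calls.

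The transcripts were found in part of the ENR enterocytes, a share that depth limits. Before thinning 47.2%, 48.5% and 42.8% held a Reg1 UMI, 58.4%, 64.1% and 40.8% a Reg3a UMI and 33.6%, 37.6% and 18.8% a Reg3b UMI. After thinning, 36.6%, 34.9% and 31.6% held a Reg1 UMI, 43.5%, 48.0% and 32.3% a Reg3a UMI and 23.7%, 27.2% and 13.8% a Reg3b UMI. The top 10% of ENR enterocytes held 85.0%, 78.3% and 86.5% of the class's Reg1 UMIs and 91.5%, 87.5% and 94.8% of its Reg3b UMIs. The genes shared cells: Reg3b was found in 48.1%, 51% and 37.9% of enterocytes with a Reg3a UMI and in 4.76%, 5.29% and 2.20% of those without. Reg3a was found in 73.5%, 85.1% and 60.0% of enterocytes with a Reg1 UMI and in 26.3%, 28.2% and 19.6% of the others. Spearman's rho for Reg3a with Reg3b was 0.63, 0.63 and 0.49, above that of Reg3b with Reg3g in the same cells.

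Goblet cells, the mucus makers, were the class in which all 5 genes were called in Hyper against ENR, 3 higher and 2 lower, where 10.7% of 11714 genes were called higher and 2.64% lower. Reg4 rose from 203, 183 and 302 CPM in ENR goblet cells to 552, 1488 and 1878 CPM in Hyper (2.41 ± 0.42, edgeR, adjusted p = 0.00119), with -VE at 385 and 885 CPM, above ENR and overlapping Hyper. Reg3b rose by 5.52 ± 0.57 (adjusted p = 3.33e-05) to 37.5, 120 and 99.7 CPM. Reg3g rose by 4.93 ± 0.66 (adjusted p = 0.000196) from 1.99, 4.70 and 8.74 CPM to 67.7, 251 and 182 CPM. In the enteroendocrine gauge of free RNA Reg3b rose by 4.08, to 12.7 to 38.5 CPM, and Reg3g by 5.25, to 29.8 to 91.8 CPM. The part of free RNA in the goblet rises was not tested.

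Reg1 fell in goblet cells from 31.6, 19.2 and 24.8 CPM to 0.164, 1.57 and 8.03 CPM (edgeR -3.17 ± 0.59, adjusted p = 0.00192), a call lost after thinning (-1.60, adjusted p = 0.0972). Single goblet cells held 73 of 111, 39 of 98 and 73 of 85 Reg1 UMIs in ENR and 36 of 38 in Hyper replicate 3. Reg3a fell there from 12.2, 3.92 and 5.24 CPM to 0, 0.472 and 0.211 CPM (-4.90 ± 0.77, edgeR, adjusted p = 0.000604). Single cells held 31 of 43 and 13 of 18 Reg3a UMIs in ENR replicates 1 and 3, and the Hyper values rest on 0, 3 and 1 UMIs. Enterocytes, where both genes are highest, were a smaller share of cells in the Hyper libraries, and the part of their free RNA in the goblet levels was not tested. Against -VE, Reg3b (7.75) and Reg3g (3.87) were higher in Hyper goblet cells, 2 of 5 where 8.72% of genes were called higher. In -VE against ENR, Reg3a (-5.04, adjusted p = 0.0103) and Reg1 (-4.55, adjusted p = 0.0103) fell in goblet cells by edgeR, 2 of 5 where 1.14% of genes were called in either direction. Within all classes together the -VE against ENR comparison gave 3 calls, and 5 with the replicate block, which added Reg3b in enterocytes (-2.94, edgeR, adjusted p = 0.0152) and Reg4 in goblet cells (1.60, adjusted p = 0.0137).

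Reg4 was carried by secretory cells in every group. Paneth cells held 1044, 742 and 838 CPM in ENR and 1036 and 1743 CPM in -VE, and Hyper-organoids had 10, 2 and 2 Paneth cells, too few for a level. Enteroendocrine cells, the hormone producers, held 540, 1474 and 1600 CPM in ENR, 15.2 and 373 CPM in -VE and 42.2, 1135 and 1647 CPM in Hyper. The ENR and Hyper libraries overlapped, and the Hyper difference was -0.31 ± 0.99 (edgeR, adjusted p = 0.877). Both -VE libraries lay below all ENR libraries, and that difference was -2.54 (adjusted p = 0.413). Reg4 came from few of these cells, with a UMI in 8.33%, 12.7% and 8.20% of ENR and 12.4%, 31.8% and 37.2% of Hyper enteroendocrine cells.

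The breadth of Reg4 differed by class. After thinning it was found in 92.0%, 87.9% and 93.9% of ENR Paneth cells, and in 30.7%, 27.0% and 38.7% of ENR goblet cells. In goblet cells the share was 49.4% and 70.0% in -VE and 48.7%, 71.7% and 71.8% in Hyper, all above ENR. Enterocytes, which should lack Reg4, held 0 to 1.75 CPM in libraries with at least 20 of them, and stem cells at most 2.45 CPM. Goblet cells held 24.5 to 32.6% of all Reg4 UMIs in ENR, 70.9 to 76.6% in -VE and 72.5 to 89.5% in Hyper. Enteroendocrine cells held 31.7 to 54.9% in ENR, 0.704 and 5.20% in -VE and 2.97 to 25.4% in Hyper.

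Whether the Hyper change differed between classes was tested for stem cells against TA, goblet and enteroendocrine cells. No gene of the 5 differed between TA and stem cells, where edgeR called 1.11% of 14350 genes, the nearest being Reg1 (-0.60, adjusted p = 0.0894). Between goblet and stem cells 4 of 5 differed, against 3.95% of 12093 genes: Reg4 by 1.58 (adjusted p = 0.000593), Reg3b by -3.04 (adjusted p = 0.00281), Reg3a by -4.79 (adjusted p = 0.00648) and Reg1 by -5.51 (adjusted p = 1.06e-06). Between enteroendocrine and stem cells Reg1 differed by -3.40 (edgeR, adjusted p = 0.0157), 1 gene against 7.38% of 12684. With limma-voom and the library as a random block, chosen after seeing the data, the goblet calls for Reg4 (adjusted p = 0.576), Reg3b (0.465) and Reg1 (0.154) and the enteroendocrine call for Reg1 (0.561) were lost.

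The genes with the pattern most like each Reg gene were sought by Pearson's r of log2 CPM over 50 sums of a class in a library, among 14509 genes. The sums share libraries and depth, so r is a description. Reg3b and Reg3g were each other's nearest gene (r = 0.870). Next came Npl (0.832) and Ppargc1a (0.793) for Reg3b and Blvrb (0.849) and Bst2 (0.819) for Reg3g. Bst2 in stem cells had group means of 9.68 CPM in ENR, 17.7 CPM in -VE and 66.2 CPM in Hyper, and Ppargc1a 1.38, 1.82 and 13.7 CPM. Reg1 was most like Cyp3a13 (0.871), Reg3a (0.865) and Slc25a45 (0.861), and the genes most like Reg3a included Reg1 and Slc25a45 (0.829). Reg4 was most like Klhdc8a (0.956), Piwil4 (0.943) and Tff3 (0.941), the last a goblet cell peptide. Reg3a and Reg3g, of the same subfamily, had r = 0.0586, and Reg3a and Reg3b r = 0.346.

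Genes around the Reg lectins in their known regulation were counted in Hyper against ENR over all kept cells, with the median log2 fold change of the tested genes beside the all-gene median of -0.01. Over all genes 18.2% were called higher and 4.75% lower, and each count is to be read against these shares. Of 12 cytokine receptor and STAT3 genes, edgeR called 1 higher and none lower (median 0.50): Osmr, the oncostatin M receptor (2.10, adjusted p = 0.00266), at means of 0.0488 CPM in ENR and 0.233 CPM in Hyper. Stat3 itself, named after its values were seen, rose by 0.91 (edgeR, adjusted p = 2.14e-05), under the 2-fold limit, from a mean of 17.5 CPM to 35.8 CPM. Of 15 tested genes known to be induced through STAT3 or interleukin-22, 7 rose and 4 fell (median 0.61), beside 18.2% and 4.75% of all genes. Lrg1 rose by 7.16 (adjusted p = 0.00406) and the chemokine Cxcl5 by 4.18 (adjusted p = 0.0171), both at or near 0 in ENR, and Nos2, inducible nitric oxide synthase, fell by 4.37 (adjusted p = 0.000246). The list thus moved in both directions. None of its genes was called in -VE against ENR, where edgeR called 2.55% of all genes and 3847 had an unadjusted p under 0.05. At that share no call in so short a list is unremarkable.

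Of 17 tested microbial sensing genes 5 rose and none fell (median -0.05), beside 18.2% and 4.75% of all genes. Tlr2, a receptor for bacterial lipoproteins, rose from a mean of 0.663 to 5.43 CPM (2.91, edgeR, adjusted p = 1.39e-05), Tlr5, the flagellin receptor, by 2.43 (adjusted p = 0.000760) and Nod2, a cytosolic peptidoglycan sensor, by 2.25 (adjusted p = 0.000340). Of 13 tested antimicrobial proteins outside the Reg family 6 fell and 1 rose (median -1.29), beside 4.75% and 18.2% of all genes. Mptx1 fell from a mean of 104 to 4.01 CPM (edgeR, adjusted p = 2.20e-05), the defensin Defa22 from 43.8 to 3.25 CPM (adjusted p = 0.00152), and Dmbt1, an enterocyte progenitor marker of this study, from 529 to 49.9 CPM (adjusted p = 0.00641). The gene that rose was Ang4, named after its values were seen, from 11.7 to 37.2 CPM (adjusted p = 0.00568). Paneth cells, which make defensins, were nearly absent from Hyper-organoids, enterocyte progenitors went from 22.2%, 24.4% and 34.5% of ENR cells to 0.107%, 0.0852% and 0.101% of Hyper cells, and the part of these shares in the antimicrobial falls was not tested. Reg3d, another Reg gene, fell by 2.00 (edgeR, adjusted p = 0.0112) at no more than 0.228 CPM in any library, and Extl3, reported as a Reg receptor, stood at 7.26 to 11.5 CPM in all 8 organoid libraries. Of 8 epithelial transcription factors Cdx1 fell, just past the 2-fold limit (edgeR, adjusted p = 1.58e-05) and none rose.

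In the colon, with 1 library per group and therefore no test, Reg3b and Reg3g were higher in DSS crypts and Reg4 lower. Reg3b stood at 1111 CPM in normal and 6732 CPM in DSS crypts, a ratio of 6.06 (95% Poisson interval 5.98 to 6.14, counting error only). Reg3g stood at 148 and 1203 CPM, a ratio of 8.11 (7.81 to 8.43). Reg4 stood at 297 and 194 CPM, a ratio of 0.656 (0.633 to 0.679). Reg1 had 33 UMIs in each library and Reg3a 9 and 10, so these small intestinal genes were near the limit of detection. On the log2 scale with 1 CPM added, the differences were 2.60 for Reg3b, 3.01 for Reg3g and -0.61 for Reg4. Of 12440 genes with at least 1 CPM in either library, 3.55% were at least 2-fold higher in DSS and 1.53% at least 2-fold lower. Reg3a was under that level, and of the other 4 Reg genes 2 were among the former and none among the latter.

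**Figure D5:**
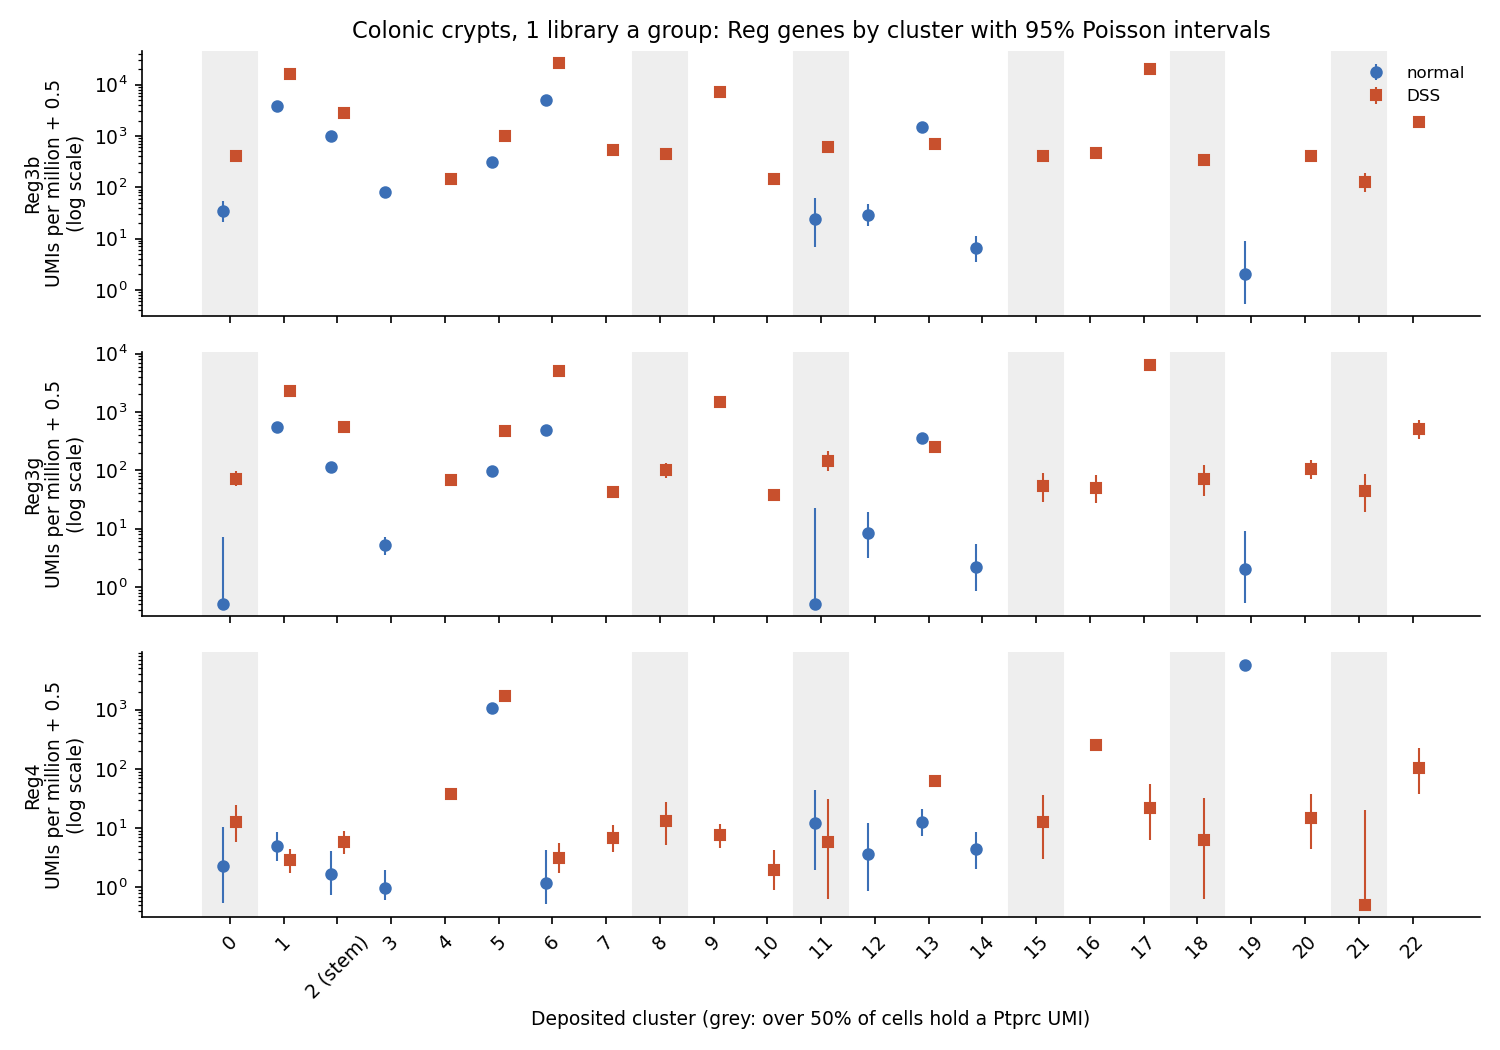
Level of Reg3b, Reg3g and Reg4 (CPM plus 0.5, log axis) in each deposited colonic cluster with at least 20 cells of a library, normal against DSS, with 95% Poisson intervals; grey marks clusters in which over 50% of cells hold a Ptprc UMI. Reg3b and Reg3g are higher in DSS in clusters 1, 2, 5 and 6 and lower in cluster 13, and Reg4 is highest in cluster 19 and cluster 5.

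The normal and DSS libraries filled different clusters of the 25 deposited, and a change within a cluster was given where both had at least 20 cells. The colonocyte markers Car1, Slc26a3 and Aqp8 summed to 9250 and 25729 CPM in clusters 1 and 6, of which Car1 made up 9145 and 25486 CPM. Slc26a3 and Aqp8 were highest in cluster 12, at 794 and 3035.5 CPM, whose 93 normal cells held 18 Reg3b UMIs. In clusters 1 and 6 Reg3b was at 3893 and 4929 CPM in normal and at 16009 and 26543 CPM in DSS crypts. These clusters held 42.7% and 33.1% of all Reg3b UMIs in normal and 40.5% and 40.9% in DSS crypts. In cluster 2, the deposited stem cluster, Reg3b stood at 1003 and 2801 CPM, a ratio of 2.79, and Reg3g at 115 and 550 CPM, a ratio of 4.80. In normal crypts the top 10% of the 102 cells of cluster 2 held 99.2% of its Reg3b UMIs, so the ratio rests on few cells, and in DSS crypts they held 66.4%. In cluster 5, whose goblet markers summed to 24085 CPM, Reg3b stood at 304 and 1012 CPM and Reg3g at 97.5 and 474 CPM.

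Among clusters with Reg3g UMIs in both libraries the ratio was highest in cluster 6, from 489 to 4980 CPM, a ratio of 10.2. The leukocyte clusters 0 and 11 had no Reg3g UMI in normal crypts and 71.5 and 146 CPM in DSS crypts. Cluster 13 ran the other way, with Reg3b at 1501 and 695 CPM and Reg3g at 353 and 251 CPM. The highest DSS level outside cluster 6 was in cluster 17, found in DSS crypts alone, whose 57 cells with a median of 2466 UMIs held 20059 CPM of Reg3b. Reg3b made up 88.2% of the pair's UMIs in normal and 84.8% in DSS crypts, more than in any Hyper stem or TA library. In stem cluster 2 it was 89.7% in normal and 83.6% in DSS crypts.

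Free RNA was gauged in colonic cells with a UMI of Ptprc, the leukocyte antigen CD45. In the normal library 7% of these 200 cells held a Reg3b UMI, against 20.2% of the 932 others, at median depths of 3589 and 21292 UMIs. In the DSS library 78.0% of 369 such cells did, against 85.2% of 1564 others, at 3779 and 20051.5 UMIs. The share of DSS cells with a Reg3b UMI is therefore close to background and is not read as expression. Levels were further apart, at 1653 CPM in Ptprc cells and 7083 CPM in the others of the DSS library, and at 23.3 and 1168 CPM in the normal one. The leukocyte clusters 0 and 11 stood at 412 and 605 CPM of Reg3b in DSS crypts, below the 1653 CPM of all Ptprc cells. The gauge cells are shallow, and DSS clusters 4 and 10, at medians of 22497 and 25404 UMIs, stood at 143 and 146 CPM. DSS clusters 5 (1012 CPM) and 13 (695 CPM), at 23111.5 and 21475 UMIs, lay above these, and the top 10% of their cells held 87.9% and 84.5% of their Reg3b UMIs. Without cells holding a Ptprc UMI the ratios were 6.06 for Reg3b, 8.11 for Reg3g and 0.658 for Reg4.

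Reg4 in the colon was carried by clusters 19 and 5, whose goblet markers summed to 45678 and 24085 CPM. Paneth cell markers also summed to 17755 CPM in cluster 19. Of the 4 markers on that list, 2 had no UMI in either colonic library, so the sum rests on part of the list. Not every cluster with goblet markers held Reg4. Cluster 20, with goblet markers at 10280 CPM in 30 DSS cells (median 4006 UMIs), held 4 Reg4 UMIs, 0.0635% of the DSS total. Cluster 19, with 36 normal cells and 2 DSS cells, held 5599 CPM and 62.6% of all Reg4 UMIs of the normal library, and cluster 5 held 30.6%. In DSS crypts cluster 5 held 92.9%. Within cluster 5 Reg4 was at 1066 CPM in normal and 1695 CPM in DSS crypts, a ratio of 1.59, while over all cells it was lower in DSS. Cluster 16, with the enteroendocrine markers Chga and Chgb, held 256 CPM in the 43 cells of DSS crypts and 2295 CPM in the 16 cells of the normal library, where 1 cell held 228 of the 357 UMIs, and no change is read from it. The fall of Reg4 over all cells thus went with the near absence of cluster 19 from the DSS library, and loss of these cells and a change of their transcripts cannot be told apart.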

How the data were processed

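Per the labels and the methods, the authors prepared 10x Genomics 3′ libraries, aligned them to mm10 and obtained UMI counts with Cell Ranger 3.0.0, merged the filtered matrices in Seurat 3.1.4, filtered cells and named classes from clusters. The deposited count table and matrices hold raw UMI counts per gene and cell, and matched entry for entry. The methods state a minimum of 1500 genes and at most 25% mitochondrial reads per cell, whereas kept cells had as few as 501 genes and at most 20%. Doublets were not called here. Pairs of libraries shared 0 to 5 kept barcodes.

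Counts of kept cells were summed per library, and per class with at least 20 cells, and tested with edgeR 4.0.16 (R 4.3.3; TMM, filterByExpr, quasi-likelihood F test) in 1 fit over 8 organoid libraries. The main fit had group as its only term and left out the culture series, which the replicate block added. The SE of an edgeR log2 fold change was derived from the test, as its absolute value over the square root of the F statistic. It is not a separately fitted standard error. CPM are UMIs of a gene over all UMIs of the summed cells, without TMM. Thinned shares leave out cells under 10000 UMIs (93 to 187 per ENR, 90 and 280 per -VE and 63 to 113 per Hyper library). Intervals are exact at 95% (Clopper-Pearson, or Poisson) and cover counting error only. Genes named are the 5 members, the 3 nearest of each and up to 3 called genes per list; 1 of the nearest is not reported here. Members and lists were chosen with earlier results of these data known. Same-numbered ENR and Hyper libraries deviated together from their group means (r = 0.192, 0.170 and 0.436 over 16037 genes). For -VE r was lower, at 0.161 and 0.0617 with ENR and at 0.139 and 0.115 with Hyper. The numbers follow code prefixes, from which the culture series was inferred, and the labels do not name a series. Alternatives were DESeq2 1.42.0, limma 3.58.1, no filter, all barcodes, thinning, the replicate block and leaving out each library. Sequences were aligned with Biopython 1.88.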

Additional observations from a re-analysis of the deposited data

Results flagged for a closer look

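The class by group tests gave 8 differences of the Hyper against ENR change between classes, each a test of the difference itself over ENR and Hyper libraries (edgeR, library as a term). Goblet minus stem cells differed by 1.58 for Reg4 (adjusted p = 0.000593), by -3.04 for Reg3b (adjusted p = 0.00281), by -4.79 for Reg3a (adjusted p = 0.00648) and by -5.51 for Reg1 (adjusted p = 1.06e-06), on the log2 scale. Enteroendocrine minus stem cells differed by -3.40 for Reg1 (adjusted p = 0.0157). Enterocyte minus stem cells, a pair added after the levels had been seen, differed by -9.69 for Reg3b (adjusted p = 1.63e-13), by -4.85 for Reg3a (adjusted p = 5.51e-05) and by -3.14 for Reg3g (adjusted p = 3.05e-05). With limma-voom and the library as a random block, chosen after seeing the data, the goblet differences of Reg4 (adjusted p = 0.576), Reg3b (0.465) and Reg1 (0.154) and the enteroendocrine difference of Reg1 (0.561) were lost.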

How the results depend on the processing

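Values are log2 fold changes unless stated, and the cause of a change was not tested. In Hyper against ENR over all kept cells, the replicate block gave 1.08 for Reg4 (called), and leaving out 1 library gave 0.80 to 1.77 for Reg4 and -4.06 to -2.06 for Reg1. Without the enterocyte class, an alternative added after seeing the data, Reg3b differed by 8.45, Reg3a by -0.96, Reg1 by 1.11 (turned, not called) and 2 of the 5 genes were called. In Hyper against -VE that setting gave 4 calls, with Reg3b at 9.46, Reg1 at 3.03 and Reg3a at 2.03 (turned and called). There the uncalled Reg4 turned to -0.020 with the block, and uncalled Reg1 to -0.45 with the block, -0.16 over all barcodes and -0.21 after thinning, and leaving out 1 library gave -0.15 to 1.34 for Reg4, -1.29 to 0.71 for Reg1 and -2.51 to 0.34 for Reg3a. In stem cells leaving out 1 library gave 0.55 to 1.32 for Reg4, -0.60 to 0.98 for Reg3a and 1.60 to 2.87 for Reg1 against ENR, and -0.33 to 0.43 for Reg4 against -VE, where DESeq2 gave 0.035 and no filter 0.020. Reg3b in enterocytes was 0.31 with the block, not called. In -VE against ENR over all kept cells 2 genes were called under DESeq2, without the filter, over all barcodes and with only the groups compared, and 0 to 2 when 1 library was left out, with 1 called in the main fit. Within classes that comparison gave 5 calls with the block and 13 without the filter, where genes with few counts enter. The limma-voom fit with the library as a random block gave 1 member differing between stem cells and transit amplifying, goblet or enteroendocrine cells (Reg3a, goblet minus stem) and 3 between stem cells and enterocytes, with Reg3a at -0.64 (transit amplifying minus stem) and Reg3g at 0.12 (enteroendocrine minus stem), neither called. The difference in the share of cells with Reg1 ran from -2.44 to 0.46 percentage points when 1 library was left out. In the colon, all barcodes gave 2.82 for Reg3b, 3.51 for Reg3g and -0.30 for Reg4, a pseudocount of 10 CPM 2.94 for Reg3g, and leaving out the 5% of cells with the most UMIs 2.48, 2.84 and -0.74. Reg3b and Reg3g kept their direction and their calls in Hyper against either other group over all kept cells and in stem cells under every alternative run. The block changed no other call than those named here or beside a result.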

Other observations

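Barcodes that were deposited but not kept by the annotation held more Reg1 per UMI than kept cells in ENR-organoids, at 315, 335 and 397 CPM in replicates 1, 2 and 3 against 150, 181 and 216 CPM in kept cells. Reg1 was also higher there in -VE (97.7 and 148 against 28.4 and 25.2 CPM), as was Reg3a in every ENR and -VE library. In Hyper-organoids Reg3b ran the other way (40.3, 81.7 and 112 against 166, 368 and 569 CPM), as did Reg3g. The few cells of the revival stem cell class of Hyper-organoids (5, 14 and 26 cells) held Reg3b at 352, 13.5 and 283 CPM and Reg3g at 273, 66.2 and 445 CPM, too few cells for a test. In -VE-organoids its 8 and 17 cells held no Reg3b UMI and 21 and 5 Reg3g UMIs, and ENR-organoids had no cells of the class.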
